A study of Mus musculus with 15 samples.

Results

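The macrophage genes described here are 10 genes chosen by name from the 48709 in the deposited table, with earlier results of these data known: Csf1r, Adgre1, Cd68, Lyz2, Mrc1, C1qa, C1qb, C1qc, Cx3cr1 and Mertk. RNA was sequenced from isolated pancreatic islets of NOD (NOD/ShiLtJ) females, with no treatment in the labels and of 1 genotype, at 4, 6, 8, 10 and 12 weeks of age, with 3 mice per age and a different animal for each of the 15 samples. NOD mice develop autoimmune diabetes spontaneously, and leukocytes gather in and around their islets before the disease, a lesion called insulitis. No other strain was among these samples, so that ageing and insulitis cannot be told apart here. The comparisons ask whether the macrophage genes were already transcribed in islets at 4 weeks or appeared later, and whether the 10 genes kept their proportions as the islets aged. All 10 genes were found in the table, and all 10 passed the filter on low counts that left 16554 genes for testing.

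Islets hold resident macrophages from early life, which lie along the capillaries and depend on signalling through the receptor encoded by Csf1r. Resident islet macrophages are known to carry Cx3cr1, F4/80 (Adgre1) and lysozyme, whereas the mannose receptor (Mrc1) is better known from macrophages of the connective tissue around acini and ducts. None of these genes is confined to a single cell type: monocytes and some dendritic cells also transcribe Csf1r, Cx3cr1 and Lyz2. Whole islets were sequenced, so a change in the number of macrophages and a change of RNA per macrophage cannot be told apart.

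On the mm10 build, the 3 C1q genes lie side by side on the reverse strand of chromosome 4, with C1qb at chr4:136880129-136886187, C1qc at chr4:136889804-136893065 and C1qa at chr4:136895917-136898803. Lyz2 lies at chr10:117277334-117282274, next to its near copy Lyz1 at chr10:117287796-117292868, both on the reverse strand. The bases just upstream of the first exon are shown for 4 genes that rose together, read from RefSeq promoters of GRCm38.p6 on the strand of the gene, with exon bases left out. Capitals mark GAGGAA or its reverse complement TTCCTC, a core bound by the myeloid factor PU.1, and, in Cd68, the core TTGCNNAA of C/EBP factors.
Cd68 (chr11:69666171-69666420, reverse strand): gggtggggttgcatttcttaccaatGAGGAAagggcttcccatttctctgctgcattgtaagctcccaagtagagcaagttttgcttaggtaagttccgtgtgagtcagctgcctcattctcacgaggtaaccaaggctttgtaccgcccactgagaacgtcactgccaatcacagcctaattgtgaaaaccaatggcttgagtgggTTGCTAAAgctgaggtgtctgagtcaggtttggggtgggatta
Mrc1 (chr2:14229164-14229391, forward strand): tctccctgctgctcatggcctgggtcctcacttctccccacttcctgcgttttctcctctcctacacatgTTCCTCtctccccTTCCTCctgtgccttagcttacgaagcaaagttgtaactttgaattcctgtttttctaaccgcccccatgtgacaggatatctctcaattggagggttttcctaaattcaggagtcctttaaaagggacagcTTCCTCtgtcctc
C1qb (chr4:136886201-136886450, reverse strand): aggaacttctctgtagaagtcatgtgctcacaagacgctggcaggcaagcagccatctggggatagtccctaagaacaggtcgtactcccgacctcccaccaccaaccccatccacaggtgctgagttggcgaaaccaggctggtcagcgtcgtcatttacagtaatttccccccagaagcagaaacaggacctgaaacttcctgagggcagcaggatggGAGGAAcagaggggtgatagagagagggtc
C1qc (chr4:136893066-136893164, reverse strand): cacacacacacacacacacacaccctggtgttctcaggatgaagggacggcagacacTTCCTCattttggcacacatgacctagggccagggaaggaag
The windows of Lyz2 and Mertk held neither core, and that of Cx3cr1 lay within exons. Searched on both strands, with no overlap between the cores, GAGGAA occurred in 23.3% of 32851 mouse promoter windows of 250 bases and TTGCNNAA in 9.56%, so a match describes these letters only. Csf1r, Adgre1 and C1qa were not matched in the promoter table.

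Lyz2 and Lyz1 encode the M and P lysozymes of the mouse, and reads from these genes can be hard to assign. Their coding sequences of 447 bases differed at 22 positions and were 95.1% identical, with 1 stretch of 118 bases that was the same in both. The first 150 coding bases hold 14 of the differences, and capitals mark them.
Lyz1: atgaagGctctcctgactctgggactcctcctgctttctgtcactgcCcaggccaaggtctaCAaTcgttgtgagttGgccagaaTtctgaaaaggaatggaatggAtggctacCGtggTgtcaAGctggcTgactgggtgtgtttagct
Lyz2: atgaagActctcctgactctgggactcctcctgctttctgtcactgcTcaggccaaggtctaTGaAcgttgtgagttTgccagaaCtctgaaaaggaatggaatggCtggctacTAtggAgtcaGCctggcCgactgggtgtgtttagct
In the 15 mice, Lyz1 held between 0.564% and 11.2% of the counts given to the pair, and the highest share was that of 6-week replicate 2. That mouse also held 170 counts of the intestinal gene Lct, and replicate 1 of 12 weeks held 1519, against at most 6 in each of the other mice; the part of this in the values of Lyz1 was not tested.

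The exons of Csf1r overlap those of Hmgxb3 on the opposite strand, and whether strand was used in counting is not given in the sources used here. Hmgxb3 held 1080 to 1607 counts in every mouse and was slightly lower at 12 than at 4 weeks, with a log2 fold change of -0.19 ± 0.061 (SE; edgeR adjusted p = 0.0210). The part of its reads in the values of Csf1r, and in the ratios to Csf1r below, was not tested.

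Library totals ran from 25407492 to 41616275 counts, and a floor of 3 counts corresponded to between 0.0753 and 0.128 CPM (counts scaled by TMM-adjusted library totals). Endocrine genes were abundant at every age, as the tissue label requires, with Ins2 at 160515 ± 12948 CPM at 4 weeks and 89381 ± 13369 at 12 weeks (SD, n = 3). Several mice stood apart from others of their age. Among the 4-week mice, replicate 1 was highest for 9 of the 10 macrophage genes and held 110 counts of the T-cell gene Cd3e against 9 and 2. Replicate 3 of 6 weeks was highest for all 10 genes, while replicate 1 of 8 weeks and replicate 3 of 10 weeks were each lowest for all 10. Replicate 2 of 12 weeks was lowest for 7 of the 10, the C1q genes included, yet held 962 counts of Siglec1, 618 of Marco and 708 of Cd209b, against at most 116, 93 and 20 in the other 12-week mice. Exocrine carry-over also varied, since the summed CPM of 6 acinar genes lay between 1058 and 12340. What these differences contribute to the results below was not tested, except where values without a mouse are given.

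All 10 macrophage genes were transcribed in islets at 4 weeks. The lowest value was 22 counts, for Mrc1 in replicate 3 of 4 weeks, and no gene was at or below 3 counts in any of the 15 mice. Levels between genes are compared in TPM, the authors' values per transcript length. At 4 weeks C1qa, a chain of the C1q molecule that starts the classical complement pathway, led with 97.4 ± 29.1 TPM (SD, n = 3). Lyz2 followed with 61.9 ± 64.5 TPM, but its 3 mice ranged from 17.4 to 136 TPM and overlapped those of C1qa, which ranged from 75.2 to 130. C1qb stood at 27.3 ± 17.4 TPM and C1qc at 15.4 ± 10.3, and their ranges overlapped as well. The growth factor receptor Csf1r (7.95 ± 4.98 TPM), the lysosomal glycoprotein Cd68 (6.15 ± 4.27), the fractalkine receptor Cx3cr1 (5.66 ± 2.83) and Adgre1 (3.96 ± 2.62) followed within overlapping ranges. The phagocytic receptor Mertk (1.01 ± 0.316 TPM) and Mrc1 (0.540 ± 0.261) were lowest, and the 3 values of Mrc1 lay just below those of Mertk.

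The order differed at 12 weeks. Lyz2 then stood first with 1615 ± 112 TPM, and each of its mice lay above every value of C1qa, which had 435 ± 121 TPM. C1qb and C1qc followed with 259 ± 75.6 and 131 ± 37.8 TPM without overlap between them. Cd68 and Csf1r were close, at 54.9 ± 11.9 and 52.5 ± 7.17 TPM, and Cx3cr1 (31.4 ± 6.98) lay above Adgre1 (20.1 ± 5.05) by a narrow margin, with a lowest value of 24.5 against a highest of 24.4 for Adgre1. Mrc1, at 6.06 ± 1.83 TPM, had passed Mertk at 3.89 ± 0.388 in mean, although the 3 values of each still overlapped.

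**Figure D1:**
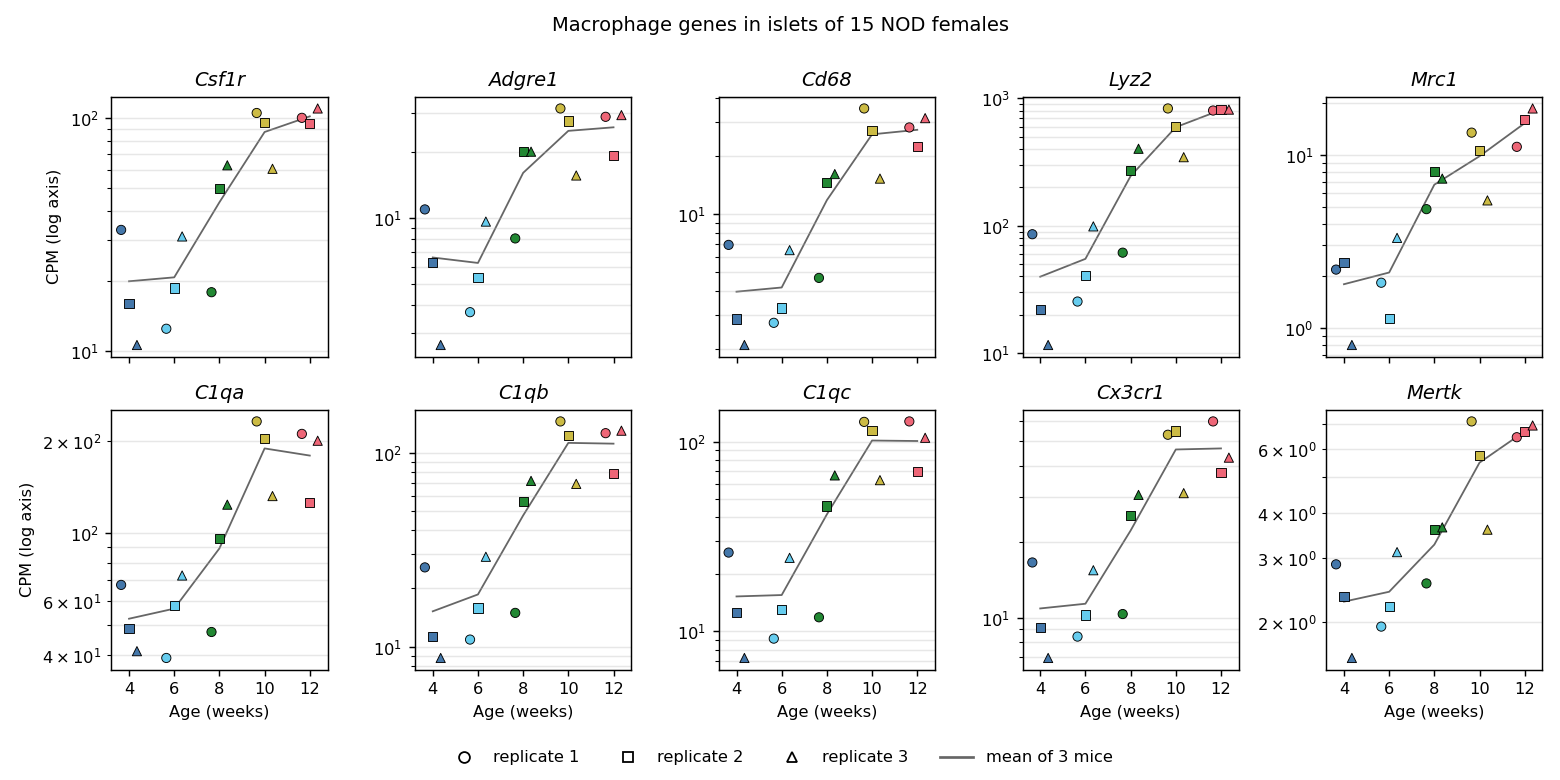
CPM (log axis) of each macrophage gene against age in weeks, with 1 point per mouse, shaped by replicate, and a line through the means of 3 mice. The 12-week points lie above all 4-week points in every panel, and 1 of the 8-week mice lies among the 4- and 6-week values for most genes.

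Between 4 and 12 weeks all 10 macrophage genes rose. Every one of them was higher in each 12-week mouse than in any 4-week mouse, and all 10 passed an adjusted p of 0.05 in edgeR's quasi-likelihood test, as did 26.3% of all genes tested in that direction. Groups that did not overlap in that direction were found for 30.3% of all genes. The median log2 fold change of the 10 genes was 2.54, against -0.048 for all genes tested. Scaling by library totals moved the median of all genes to 0.20 and that of the macrophage genes to 2.77. Without replicate 1 of 4 weeks the log2 changes of all 10 genes were larger, at 2.93 for Csf1r, 3.46 for Cd68, 3.48 for C1qb, 3.35 for C1qc and 5.60 for Lyz2. They were then 3.27 for Mrc1, 2.55 for Adgre1, 2.54 for Cx3cr1, 2.00 for C1qa and 1.76 for Mertk.

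Lyz2, which encodes an enzyme that cleaves bacterial cell walls, changed most. It stood at 85.8, 22.0 and 11.6 CPM in the 4-week mice, and at 803, 817 and 816 CPM in the 12-week mice. Replicate 1 thus set most of the spread at 4 weeks, whereas the 12-week mice were nearly equal. The log2 fold change was 4.35 ± 0.847 (SE; adjusted p = 0.00125), a 20.4-fold difference, and 5.60 without replicate 1 of 4 weeks. Its near copy Lyz1 also rose, from 0.508 ± 0.123 to 15.4 ± 9.56 CPM (a log2 change of 4.92 ± 0.856; adjusted p = 0.000697), with 784 counts in replicate 2 of 12 weeks against 248 and 380.

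Among the surface receptors, Csf1r was at 33.1, 16.1 and 10.6 CPM in the 4-week mice and at 100.1, 94.8 and 110 CPM in the 12-week mice. It was 5.09-fold higher, with a log2 fold change of 2.35 ± 0.490 (SE; adjusted p = 0.00185). Cx3cr1 rose from 10.9 ± 5.04 to 46.8 ± 11.6 CPM (a log2 change of 2.10 ± 0.420; adjusted p = 0.00147). Adgre1 rose from 6.60 ± 4.15 to 25.8 ± 5.65 CPM (a log2 change of 1.97 ± 0.506; adjusted p = 0.00604), and Cd68, within the cells, from 3.96 ± 2.59 to 27.3 ± 4.52 CPM (2.78 ± 0.542; adjusted p = 0.00126).

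Both receptors for uptake were scarce and rose by unequal amounts. Mrc1, which binds mannose-bearing glycoproteins, was at 2.17, 2.39 and 0.796 CPM at 4 weeks and at 11.1, 16.0 and 18.5 CPM at 12 weeks. This amounted to a log2 change of 3.10 ± 0.479 (SE; adjusted p = 0.000415), or 8.55-fold. Mertk, which binds apoptotic cells through the bridging proteins Gas6 and protein S, was at 2.88, 2.35 and 1.59 CPM at 4 weeks and at 6.45, 6.68 and 6.95 CPM at 12 weeks. It had the smallest change of the 10 genes, 2.94-fold, with a log2 fold change of 1.56 ± 0.281 (SE; adjusted p = 0.000839).

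The 3 chains of C1q did not rise evenly, although they are assembled into a single molecule. C1qa was at 67.6, 48.6 and 41.0 CPM in the 4-week mice and at 211, 126 and 200.5 CPM in the 12-week mice, with a log2 difference of 1.78 ± 0.357 (SE; adjusted p = 0.00151). C1qb was at 25.7, 11.3 and 8.75 CPM at 4 weeks and at 126, 78.1 and 130.1 CPM at 12 weeks, with a log2 difference of 2.87 ± 0.584 (SE; adjusted p = 0.00160). C1qc rose from 15.3 ± 9.67 to 101 ± 29.3 CPM (a log2 change of 2.72 ± 0.614; adjusted p = 0.00291). Within a mouse, C1qa had 2.63, 4.30 and 4.69 counts for each count of C1qb at 4 weeks, and 1.67, 1.62 and 1.54 at 12 weeks. Between 2.49 and 3.67 counts were found at 6 weeks, 3.17, 1.71 and 1.73 at 8 weeks and between 1.60 and 1.91 at 10 weeks, so that the 8-week mouse with the lowest macrophage genes kept a ratio like that of the younger mice. The ratio also differed within an age. Replicate 1 of 4 weeks and replicate 3 of 6 weeks, the mice highest for most macrophage genes, had the lowest ratios of their ages, 2.63 and 2.49. The cause was not tested. For each count of C1qb there were between 0.793 and 1.11 counts of C1qc in all 15 mice.

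With 6 mice on each side, the 10- and 12-week mice together were compared with the 4- and 6-week mice. Again all 10 genes rose and none overlapped, where 30.1% of all genes passed the test in that direction and 19.7% were higher without overlap. The log2 fold changes ran from 1.37 ± 0.198 for Mertk (SE; adjusted p = 9.05e-05) to 3.89 ± 0.586 for Lyz2 (adjusted p = 0.000117). Over the 5 ages together, all 10 genes varied by the joint test of edgeR, as did 56% of all genes.

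The successive intervals were then tested, and no macrophage gene passed the adjusted threshold in any of them in the main fit. The rise was therefore not placed in a single interval by these tests. The median log2 fold changes of the macrophage genes were 0.076 and 0.066 in the first and last intervals. They were 1.36 and then 1.08 in the middle intervals. Between 4 and 6 weeks no macrophage gene passed the adjusted threshold, and 1 gene of the 16554 (0.00604%) did in the upward direction. The log2 fold changes lay between -0.08 for Adgre1 and 0.46 for Lyz2. Their intervals were wide, the widest from -1.15 to 2.08 for Lyz2 and the narrowest from -0.53 to 0.70 for Mertk. Changes within a gene's interval were thus not excluded with 3 mice per age. At an unadjusted p of 0.05, edgeR found 1435 genes in this interval, among them no macrophage gene.

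Between 6 and 8 weeks all 10 genes had a log2 fold change above 0, as had 47.8% of all genes. Their median was 1.36, against -0.011 for all genes. None passed the adjusted threshold in edgeR, where no gene of the 16554 (0%) did, although 2983 genes had an unadjusted p under 0.05. By a fold of 1.5 with p under 0.05, thresholds of the study applied here to the unadjusted p, 8 of the 10 genes were higher at 8 weeks, beside 8.4% of all genes. C1qa (log2 fold change 0.65 ± 0.349, SE) and Mertk (0.43 ± 0.280) did not meet it. Mrc1 had no overlap, with 1.82, 1.13 and 3.31 CPM at 6 weeks and 4.85, 8.02 and 7.28 at 8 weeks, as had 7.62% of all genes. For the other 9 genes replicate 1 of 8 weeks lay within the range of the 6-week mice, and both other 8-week mice lay above it. Csf1r, for example, was at 12.5, 18.7 and 31.0 CPM at 6 weeks and at 17.9, 49.9 and 62.6 CPM at 8 weeks. DESeq2 called 1 of the 10 genes, beside 2.64% of all genes higher, and edgeR called 1 without replicate 1 of 8 weeks, beside 4.29%. Without that mouse, replicate 1 of 4 weeks and replicate 2 of 12 weeks, a choice made after seeing the data, edgeR called 7, beside 6.29% of all genes higher.

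Between 8 and 10 weeks the log2 fold changes of the 10 genes were again all above 0, as were 49.5% of all genes. Their median was 1.08, against -0.0050 for all genes. None passed the adjusted threshold, which 8.4% of all genes passed in that direction. C1qa was closest, with a log2 fold change of 1.09 ± 0.350 (SE; edgeR adjusted p = 0.0502), and DESeq2 called 3 of the 10 genes beside 14.4% of all genes higher. By a fold of 1.5 with an unadjusted p under 0.05, 6 of the 10 were higher, beside 11.1% of all genes. C1qa and Cx3cr1 did not overlap between these ages, as was true of 17.2% of all genes. Leaving out replicate 3 of 10 weeks gave 3 calls beside 16.0% of all genes called higher, and leaving out replicate 3 of 8 weeks gave 1 beside 10.5%.

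Between 10 and 12 weeks the log2 fold changes lay between -0.08 for C1qa and 0.63 for Mrc1. No macrophage gene and no other gene (0%) passed the adjusted threshold in edgeR, and 1244 genes had an unadjusted p under 0.05. Mrc1 was at 13.4, 10.5 and 5.45 CPM at 10 weeks, which overlapped its 12-week values, and its interval ran from -0.29 to 1.56.

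**Figure D2:**
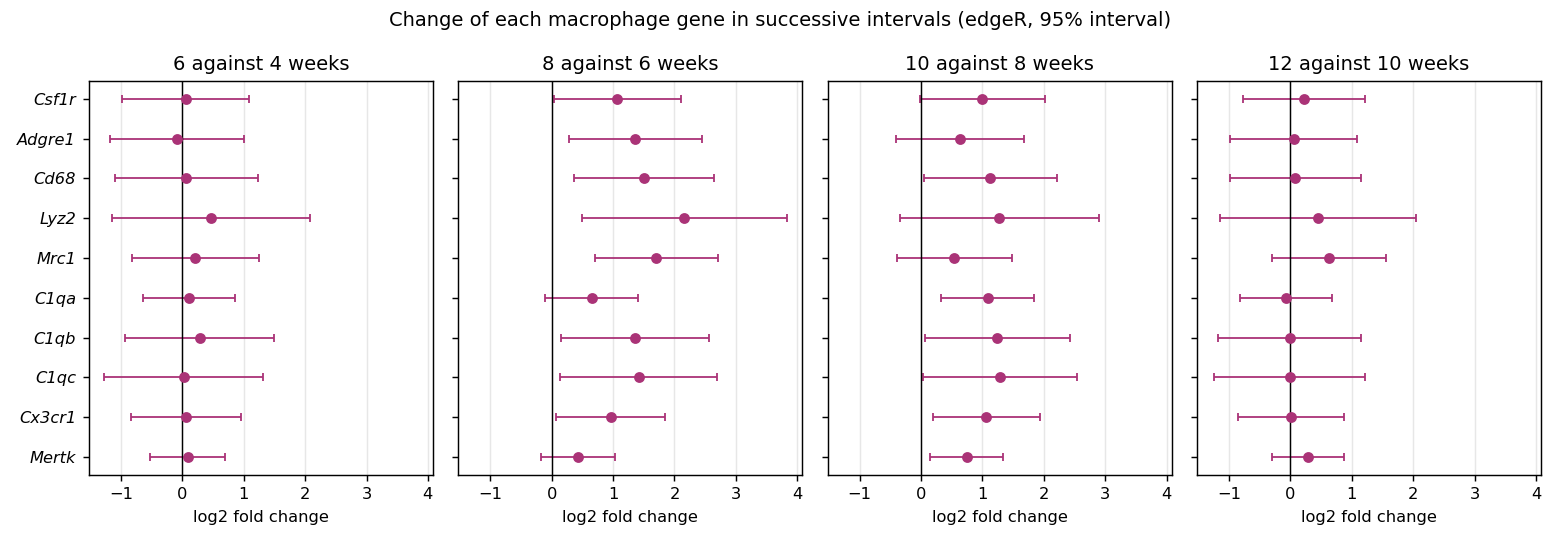
Log2 fold change of each macrophage gene in 4 successive intervals, as edgeR estimates (points) with 95% intervals (bars), from 3 mice per age. The points lie mostly near 0 in the first and last intervals and above 0 in both middle intervals, where many bars still reach close to 0 or across it.

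The share of its 12-week level that a gene had already reached at 4 weeks differed among the 10. In mean CPM it was 34.0% for Mertk, 29.2% for C1qa, 25.6% for Adgre1, 23.3% for Cx3cr1 and 19.6% for Csf1r. It was 15.2% for C1qc, 14.5% for Cd68, 13.7% for C1qb, 11.7% for Mrc1 and 4.9% for Lyz2. Without replicate 1 of 4 weeks it was 29.5% for Mertk, 25.0% for C1qa, 17.2% for Adgre1 and for Cx3cr1 and 13.1% for Csf1r. It was then 10.5% for Mrc1, 9.83% for C1qc, 9.09% for Cd68, 8.98% for C1qb and 2.07% for Lyz2. At 8 weeks the 10 genes had reached between 30.2% (Lyz2) and 62.1% (Adgre1), and at 10 weeks between 64.4% (Mrc1) and 106% (C1qa).

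**Figure D3:**
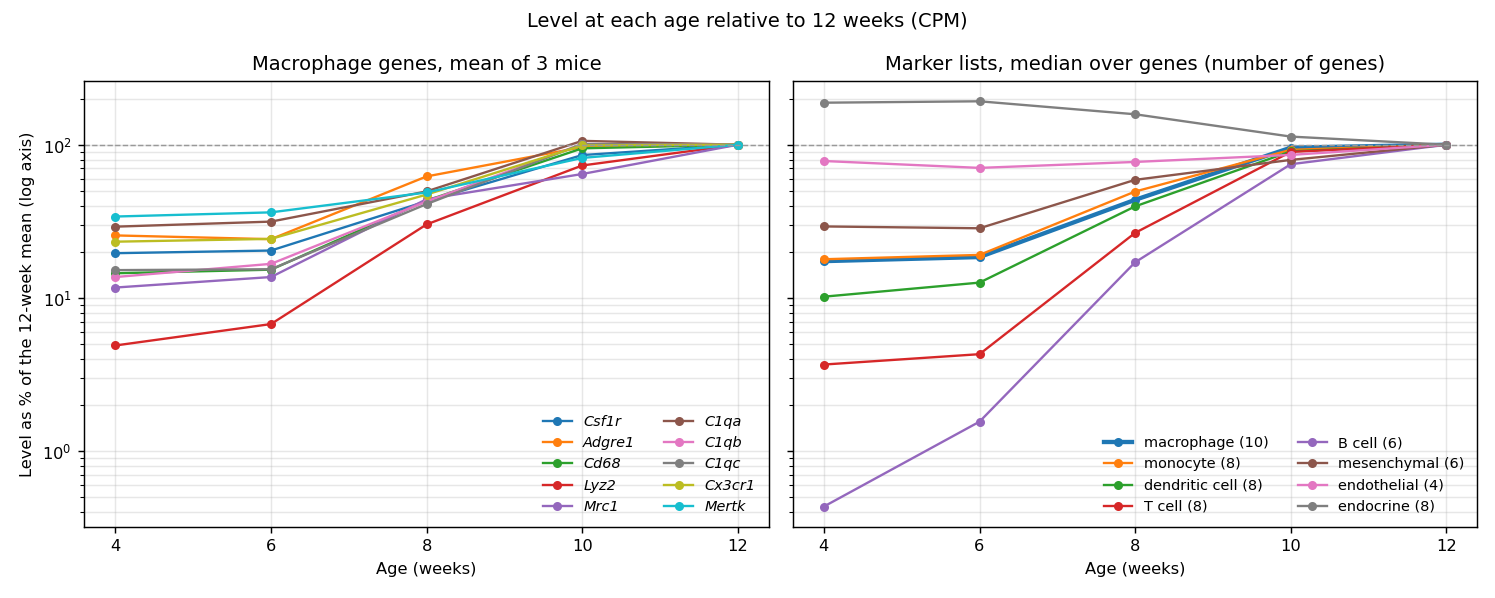
Mean CPM at each age as a percentage of the 12-week mean (log axis), for the 10 macrophage genes on the left and as medians over marker lists on the right. At 4 weeks the macrophage genes lie between 4.9% and 34.0%, with a median of 17.4%, and the T-cell and B-cell lists lie at 3.68% and 0.436%.

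Whether the genes kept their proportions was tested by ratios within each mouse, which do not depend on the scaling between mice. For 13 ratios, the 6 mice of 10 and 12 weeks were compared with the 6 of 4 and 6 weeks by exact two-sided permutation tests, adjusted over the 13, with a smallest possible p of 0.00216. Lyz2 relative to Csf1r increased. In the 4-week mice Lyz2 had 2.59, 1.37 and 1.09 times the CPM of Csf1r, and in the 12-week mice 8.02, 8.61 and 7.43 times. The mean log2 ratio was 0.96 ± 0.576 (SD, n = 6) in the younger and 2.86 ± 0.228 (n = 6) in the older mice, a 3.74-fold shift without overlap (exact permutation test, adjusted p = 0.00469). The 8-week mice were at 3.42, 5.46 and 6.42 times, the highest within the range of the 10-week mice.

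Mertk relative to Csf1r moved the other way. The ratio was 0.0889, 0.150 and 0.155 in the 4-week mice and 0.0650, 0.0712 and 0.0638 in the 12-week mice, and the younger and older mice did not overlap. The mean log2 ratio fell by 0.97 (exact permutation test, adjusted p = 0.00469). C1qa relative to Csf1r fell by 0.56 on the log2 scale (exact permutation test, adjusted p = 0.0188), with overlap between the younger and older mice. When ages were permuted only within replicate numbers, which do not pair these animals, its adjusted p was 0.0535 by the exact permutation test.

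Cd68 rose by 0.47 on the log2 scale relative to Csf1r without overlap (exact permutation test, adjusted p = 0.00469). C1qb rose by 0.50 and C1qc by 0.50 on the same scale, both with overlap (exact permutation test, adjusted p = 0.0176 for each). For 3 ratios no shift passed the threshold: Mrc1 to Csf1r was higher by 0.38 (exact permutation test, adjusted p = 0.197), Adgre1 to Csf1r lower with a difference of -0.22 (adjusted p = 0.113) and Cx3cr1 to Csf1r likewise with -0.22 (adjusted p = 0.143). The ratio of Adgre1 passed when replicate 3 of 4 weeks was left out, with a difference of -0.28 (exact permutation test, adjusted p = 0.0176).

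**Figure D4:**
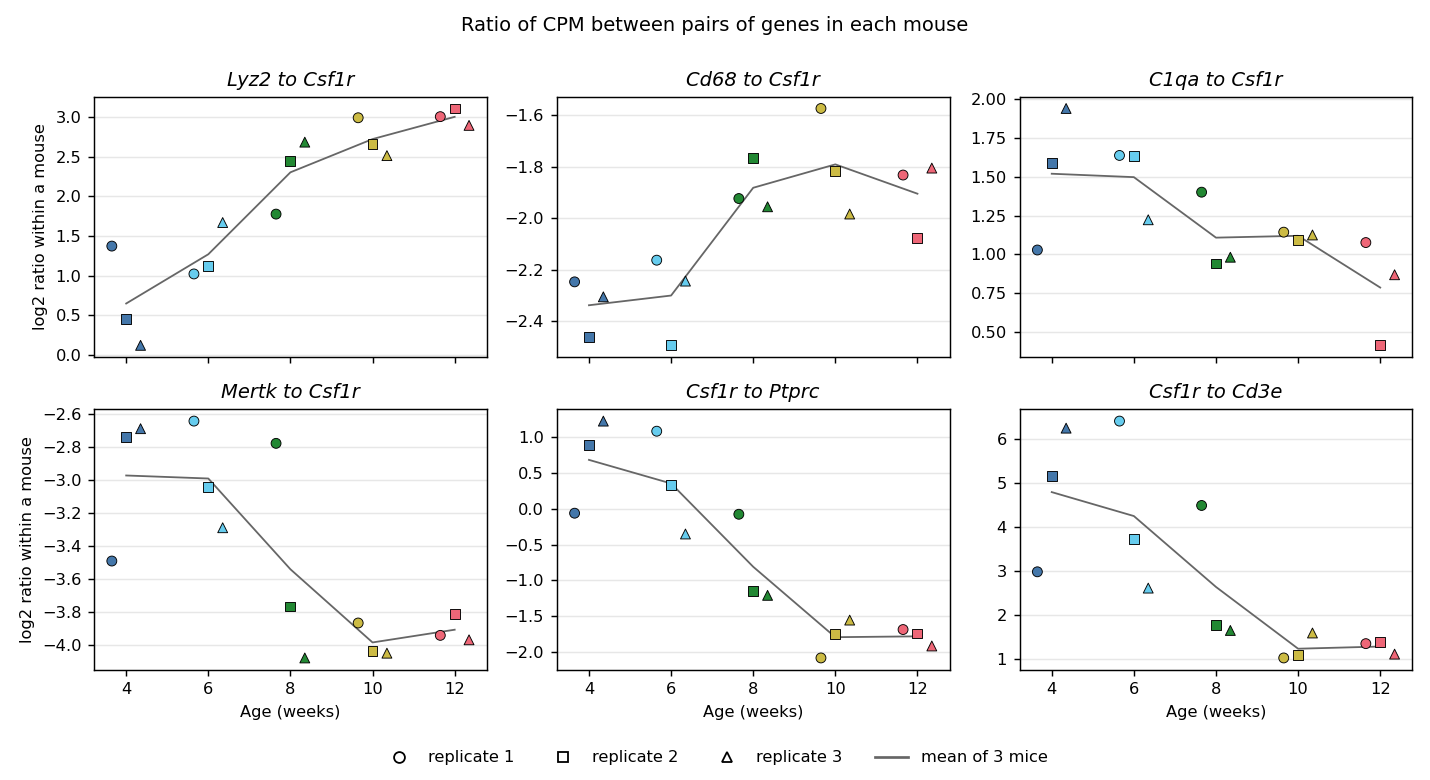
Log2 ratio of CPM between pairs of genes within each mouse against age in weeks, with 1 point per mouse, shaped by replicate, and a line through the means of 3 mice. Lyz2 and Cd68 rise relative to Csf1r, C1qa and Mertk fall relative to it, and Csf1r falls relative to Ptprc and Cd3e.

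Csf1r rose less than Ptprc, which macrophages also carry, and less than the lymphocyte genes Cd3e and Cd79a. Its CPM, not divided by length, was 0.958, 1.85 and 2.33 times that of Ptprc (CD45, carried by nearly all leukocytes) in the 4-week mice and 0.311, 0.300 and 0.266 times in the 12-week mice. The younger and older mice did not overlap, and the ratio fell by 2.30 on the log2 scale, 4.93-fold (exact permutation test, adjusted p = 0.00469). Relative to Cd3e, a chain of the T-cell receptor complex, Csf1r fell by 3.26 on the log2 scale, 9.59-fold, without overlap (exact permutation test, adjusted p = 0.00469). That ratio rests on few counts in young mice, since Cd3e had 2 counts in 2 of them. Relative to the B-cell receptor gene Cd79a it fell by 1.11 without overlap (exact permutation test, adjusted p = 0.00469). Relative to Ccr2, the chemokine receptor of inflammatory monocytes, the difference of -0.70 did not pass (exact permutation test, adjusted p = 0.128), but it reached -0.92 (adjusted p = 0.0478) without replicate 3 of 6 weeks.

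Marker lists of other cells moved beside the macrophage genes, and their part in the results was not tested. Without replicate 1 of 4 weeks the median share of the 12-week level present at 4 weeks moved from 14.5% to 8.52% for further myeloid genes, from 12.8% to 7.49% for partners of C1q and from 5.29% to 2.09% for pan-leukocyte genes. At 12 against 4 weeks, 16 of 17 further macrophage and myeloid genes rose and none fell, beside 26.3% of all genes called higher. Their median log2 fold change was 2.79. They included Aif1 (3.05 ± 0.841, SE), the myeloid transcription factor Spi1, which encodes PU.1 (3.30 ± 0.738), the signalling adaptor Tyrobp (3.03 ± 0.617) and, with the largest change, the cytokine receptor chain Csf2rb (4.18 ± 0.822). Trem2, a lipid receptor of macrophages, was the exception, with 1.58 ± 0.288 CPM at 4 weeks and 1.96 ± 0.731 at 12 weeks (edgeR adjusted p = 0.423).

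Of 8 monocyte genes, 7 rose, beside 26.3% of all genes. Among the 7 were Ccr2 (log2 fold change 2.32 ± 0.920, SE), Ly6c2 (1.21 ± 0.416) and Chil3, which had 3, 0 and 0 counts at 4 weeks and 15, 16 and 12 at 12 weeks. Ifitm6 had the largest change, from 0 to 3 counts in the 4-week mice to 66, 40 and 74 in the 12-week mice. F13a1 did not pass, with 5.47 ± 0.513 CPM at 4 weeks and 5.25 ± 0.892 at 12 weeks. The share of the 12-week level already present at 4 weeks ran from 1.93% (Ifitm6) to 104% (F13a1) for these genes. It ran from 4.9% (Lyz2) to 34.0% (Mertk) for the macrophage genes. The medians were 17.9% for the monocyte genes and 17.4% for the macrophage genes. Without replicate 1 of 4 weeks these medians were 10.9% and 11.8%, and that of the T-cell genes moved from 3.68% to 0.683%. Of the 6 neutrophil genes none had enough counts to be tested, and their summed CPM was at most 1.12 in any mouse.

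All 8 dendritic-cell genes rose, with a median log2 fold change of 3.28, all 8 T-cell genes, with a median of 4.75, and all 6 B-cell genes, with a median of 7.85. Of all genes tested, 26.3% were called higher. The median share already present at 4 weeks was 10.2% for the dendritic-cell genes and 0.436% for the B-cell genes, and 3.04% and 0.277% without replicate 1 of 4 weeks. The summed CPM of the T-cell genes was 3.07 to 34.9 at 4 weeks and 338 to 462 at 12 weeks, and that of the 10 macrophage genes was 93.3 to 278 and 1287 to 1503. All 3 pan-leukocyte genes rose as well, Ptprc by 4.46 ± 0.924 on the log2 scale (SE). Endocrine genes moved the other way, with 7 of 8 lower at 12 weeks, beside 27.2% of all genes, and a median of -0.91. Of the 6 acinar genes none passed in either direction (median 0.87, edgeR adjusted p of at least 0.368).

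Of 8 genes tied to subsets of tissue macrophages, 6 could be tested at 12 against 4 weeks and 5 rose, beside 26.3% of all genes. The largest change was that of the scavenger receptor Marco (log2 fold change 7.22 ± 1.32, SE). It had at most 4 counts in each 4-week mouse and 50, 618 and 93 counts in the 12-week mice, so that replicate 2 carried most of its mean. Timd4, a receptor for phosphatidylserine, had 13, 1 and 0 counts at 4 weeks and 145, 460 and 182 at 12 weeks. Folr2, the folate receptor of some resident macrophages, had at most 8 counts at 4 weeks and 20, 33 and 45 at 12 weeks. Lyve1, shared with lymphatic endothelium, did not pass, with 236 to 249 counts in the 4-week mice and 239, 748 and 386 in the 12-week mice (edgeR adjusted p = 0.0816). Vsig4 held at most 15 counts in any mouse, and Clec4f, a marker of Kupffer cells in liver, at most 1.

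Ligands of the receptors were transcribed in the same islets. Both ligands of the Csf1r receptor rose from 4 to 12 weeks, Csf1 from 24.2 ± 5.31 to 53.2 ± 7.11 CPM (a log2 change of 1.14 ± 0.217, SE; edgeR adjusted p = 0.00112) and Il34 from 3.43 ± 0.536 to 13.6 ± 2.36 CPM (1.99 ± 0.348; adjusted p = 0.000716). Cx3cl1, the ligand of Cx3cr1, stood at 21.2 ± 3.46 CPM at 4 weeks and 22.8 ± 1.10 at 12 weeks, with a log2 fold change of 0.11 ± 0.109 (edgeR adjusted p = 0.420). In all, 5 of the 6 genes on the ligand list rose and none fell, beside 26.3% of all genes called higher, with a median of 1.67. The largest change was that of Tgfb1 (2.20 ± 0.315), a cytokine gene on the list whose product is not a ligand of the receptors described here. All 6 partners of C1q in the classical pathway rose too, with a median of 2.97. Among them were the C1q-bound proteases C1ra (8.02-fold) and C1s1 (7.64-fold), the downstream component C2 (3.29-fold) and, with the largest change, C3 (22.6-fold), which rose from 43.3 ± 45.6 to 981 ± 173 CPM.

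Stromal and vessel lists changed in part, beside 26.3% of all genes called higher at 12 than at 4 weeks. Of 6 mesenchymal genes, 5 rose with a median of 1.79, among them the collagens Col1a1 (2.01 ± 0.396, SE) and Col3a1 (1.57 ± 0.266), and most of all Pdgfra (3.45 ± 0.550), whose 4-week CPM as a share of the 12-week CPM moved from 9.12% to 5.27% without replicate 1 of that age. Of 4 endothelial genes, 3 rose by small amounts, with Pecam1 highest (0.85 ± 0.100) and Kdr not passing (-0.0072 ± 0.0931). In the list of lymphatic and sinusoidal endothelium 2 genes rose, Pdpn most (2.98 ± 0.477), and Prox1, which islet endocrine cells also transcribe, fell by 0.58. Krt19 (1.74 ± 0.396) was the larger of 2 duct genes of 4 that rose. Of 4 mesothelial genes, 3 rose from at most 2 counts in each 4-week mouse, with the largest change in Lrrn4 (14, 19 and 67 counts at 12 weeks), and Msln fell by 3.05.

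The genes whose profiles over the 15 mice were most like those of 4 macrophage genes were found by the root mean square difference of log2 CPM, each gene centred on its own mean. This likeness follows age as well as differences between mice of 1 age, and is given as a description. For Csf1r they were Birc3 (0.154), Lpcat2 (0.158) and Cyp27a1 (0.194). For C1qa they were Gsdmd (0.101), Unc93b1 (0.113) and Bcl2l12 (0.113), smaller differences than any found for the other 3 genes. The measure is not scaled to how much a gene varied, and C1qa changed least of the 4 from 4 to 12 weeks. For Lyz2 they were Lsp1 (0.204), Csf2rb (0.222) and Btk (0.228), all known from leukocytes. For Mrc1 they were Dcn (0.279), Dpt (0.309) and Slc10a6 (0.317), of which Dcn and Dpt encode matrix proteins of connective tissue. Dcn and Dpt rose by 3.32 ± 0.426 and 3.42 ± 0.384 on the log2 scale (SE) from 4 to 12 weeks, beside 3.10 for Mrc1, whereas Lsp1 and Btk rose by 4.22 ± 0.808 and 4.25 ± 0.771, beside 4.35 for Lyz2. Without replicate 1 of 4 weeks the shares of the 12-week CPM of Lsp1 and Btk present at 4 weeks moved from 5.36% and 5.21% to 2.32% and 1.48%.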

How the data were processed

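Islet RNA was extracted with a column kit, enriched for polyA and sequenced as read pairs. According to the methods of the study, the authors trimmed, aligned and counted the reads with default settings of CLC Genomics Workbench (23.0), on the mm10 build per the labels. The deposited values used were raw counts per gene, which the authors did not normalize, and the authors' TPM. A further 30 columns of per-sample values were not used. The table has 1 column per mouse, and replicates of 1 age differed by more than sampling noise.

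Counts were tested in edgeR (4.0.16, R 4.3.3) by the quasi-likelihood test over all 15 mice, with filterByExpr, TMM scaling and Benjamini-Hochberg adjustment over 16554 genes, which was tested on simulated data. CPM are counts scaled by TMM-adjusted library totals, and fold changes are ratios of fitted means. Ratios used log2 CPM with a prior count of 2 and exact permutation tests in Python (3.11.15, numpy 2.4.6). Alternatives were DESeq2 (1.42.0), other scalings, no filter, a replicate block and leaving out mice. The 10 genes and the 18 marker lists were chosen with earlier results of these data known, and list counts support no independent claim. The text names all 10 genes, genes taken from the first 3 of each list and its gene of largest change, the 3 nearest profiles of 4 genes, and Lyz1. Trem2, F13a1, Cx3cl1, Kdr, Prox1, Msln, Siglec1, Cd209b, Hmgxb3, Lct, Vsig4 and Clec4f were named after their values were seen. Sequences came from RefSeq and GENCODE tables of GRCm38; 87.9% of 46325 genes have the same start and end in GENCODE as in the deposited table. Itgam was not analysed here.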

Additional observations from a re-analysis of the deposited data

Results flagged for a closer look

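In groups of 6 mice, 46 sets of values were examined for a single mouse far from the others, and 5 had one by Dixon's test, which chance gives for about 1 in 20 groups. Among the 10- and 12-week mice, replicate 3 of 10 weeks was set apart as the lowest for Csf1r (5.92 log2 CPM), Lyz2 (8.43 log2 CPM) and Mertk (1.87 log2 CPM). Its position as lowest of its age for all 10 macrophage genes is described above. The log2 ratio of C1qb to Csf1r was lowest in replicate 2 of 12 weeks, at -0.28. The log2 ratio of Csf1r to Cd79a was highest in replicate 1 of 4 weeks, at 2.49, among the 4- and 6-week mice.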

How the results depend on the processing

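At 12 against 4 weeks, at 10 and 12 against 4 and 6 weeks and over the 5 ages, all 10 genes were called under every alternative run, and none was called between 4 and 6 or 10 and 12 weeks by an adjusted p. In the main fit 26.3% of all genes were called higher at 12 against 4 weeks. The share was 30.1% at 10 and 12 against 4 and 6 weeks, and 56% of all genes varied over the 5 ages. Shares under the alternatives are not given for these comparisons, so these calls do not set the macrophage genes apart. Between 6 and 8 weeks DESeq2 called 1, the fold of 1.5 with an unadjusted p 8, edgeR 0 to 1 with single mice left out, and 7 without the 3 mice named above. Between 8 and 10 weeks DESeq2's size factors in edgeR gave 1 call beside 9.5% of all genes higher, DESeq2 3 beside 14.4%, the fold of 1.5 with an unadjusted p 6, and leaving out single mice 0 to 3, beside 0.0% to 16.0% of all genes. The causes were not tested. The median of all genes moved by more than 0.1 (log2) only when library totals replaced TMM.

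Changes between 4 and 6 weeks were small against their errors and their direction was not fixed. With mice left out, the log2 fold change ran from -0.35 to 0.64 for Csf1r, -0.53 to 0.50 for Adgre1, -0.40 to 0.74 for Cd68, -0.27 to 1.71 for Lyz2, -0.28 to 0.53 for Mrc1, -0.11 to 0.34 for C1qa, -0.18 to 0.89 for C1qb, -0.45 to 0.65 for C1qc, -0.22 to 0.50 for Cx3cr1 and -0.13 to 0.30 for Mertk. Between 10 and 12 weeks Csf1r, Lyz2, Mrc1 and Mertk kept a positive change under every alternative, and 6 genes did not, with ranges from -0.19 to 0.26 for Adgre1, -0.19 to 0.36 for Cd68, -0.28 to 0.12 for C1qa, -0.27 to 0.21 for C1qb, -0.26 to 0.20 for C1qc and -0.21 to 0.15 for Cx3cr1. There library totals gave 0.013 for C1qb and 0.014 for C1qc, and for C1qc DESeq2's size factors gave 0.0028 and DESeq2 0.0028. With mice left out, the log2 ratio of Adgre1 to Csf1r shifted by -0.28 to -0.15 and that of Csf1r to Ccr2 by -0.92 to -0.48, and each passed the threshold in 1 case.

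Replicate numbers are shared between ages but name different animals. The deviations of same-numbered mice had no steady sign across intervals (correlations of -0.504 to 0.509), with 0.509, -0.118 and 0.489 at 8 against 6 weeks. When replicate number entered the fit as a replicate block, all 10 genes were still called at 12 against 4 weeks. The share of all genes called there under the block is not given. The 2776 genes called between 8 and 10 weeks became 0. Under the replicate block the shift of C1qa to Csf1r, -0.56, had an adjusted p of 0.0535 by the exact permutation test, and no other ratio crossed the threshold. Depth did not limit the detection of any of the 10 genes, whose lowest value was 22 counts, and 3 mice per age limited the intervals.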
